A study of Rattus norvegicus with 12 samples.

Results

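The tumour necrosis factor (TNF) ligand and receptor superfamilies were followed in the rat colon through 30 genes, measured by 33 of the array's 30367 probes. The array carries 26514 distinct gene names. The members were taken by symbol, as Tnf, Lta, Ltb and the symbols that begin with Tnfsf (ligands) or Tnfrsf (receptors) and go on with a number. This gave 14 ligand genes with 14 probes and 16 receptor genes with 19 probes, since Tnfrsf1b, Tnfrsf8 and Tnfrsf21 have 2 probes each. Where a gene had 2 probes, the brighter on average stood for the gene, and the other is given as its second probe. Group C were 4 male Wistar rats (C1 to C4) that were normally handled and received placebo, 100 µl saline. Group M were 4 male Wistar rats (M5 to M8) with neonatal maternal separation (NMS), a parting from the dam of 180 min a day from postnatal day 2 to day 14, and the same placebo. Group D were 4 male Wistar rats (D9 to D12) with the same separation that received VSL#3, a mixture of probiotic bacteria, in the same volume. All rats were gavaged daily from day 3 to day 60, underwent colorectal distension (CRD), and gave colon tissue at day 60. The methods analysed 11 arrays with D9 to D11, so these 11 are used here and D12 is given beside them. Whether rats shared a litter is not given in the sources used here, so the p-values measure the spread between these rats.

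TNF family ligands are trimeric proteins of the cell membrane, many of which are cut to a soluble form, and they act by clustering their receptors. Receptors with a death domain, such as Tnfrsf1a, Tnfrsf10b, Tnfrsf21 and Tnfrsf25, can start either cell death or NFkB signalling, while most others recruit TRAF adapters. In the gut the family is known for TNF itself as a driver of inflammation, for lymphotoxins in the building of lymphoid follicles, and for costimulation of T and B cells.

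A level is the log2 of a probe's signal over the 75th percentile of all signals on that array, so that 0 marks the percentile itself and a step of 1 is 2-fold. That percentile lay between 1434 and 1953 units of intensity over the 12 arrays, and 75.5% to 77.5% of spots were well above background. The tissue label was matched by its markers, since 10 of 10 epithelial, 9 of 9 measured smooth muscle and 9 of 10 colonic epithelial markers were well above background on every array. Rats C2, M6 and D12 stood apart from the rest of their groups in many members, and results are given with and without them where they decide a call. Groups C and M lay on 1 slide and Group D on another with a scan of its own. Slide and Group D therefore cannot be told apart. Group M vs Group C lay within 1 slide, with Group C in its row 1 and Group M in its row 2. Row and group cannot be told apart in that comparison. Of the members, 19 genes (9 ligands, 10 receptors) were well above background on each of the 11 arrays, 9 on some arrays, and Tnfsf4 and Tnfrsf19 on none of them. In bulk colon, fewer cells of a type and less RNA per cell cannot be told apart.

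The probes of Lta, Tnf and Ltb, the 3 founding ligands, lay beside each other on chromosome 20 of the rn4 build, at chr20:3659744-3659803 and chr20:3663558-3663617 on the forward strand and at chr20:3666709-3666768 on the reverse strand. Of the receptor genes, 7 lay on chromosome 5, and the probes of Tnfsf12 and Tnfsf13 were close together on chromosome 10. Of the 30 members, 22 had a promoter in the RefSeq table used here (build GRCr8), taken as the 250 bases before the gene's start. The promoters of 6 members on which the comparisons turn are shown 5′ to 3′ on the strand of the gene. Capitals mark matches on either strand to 3 motifs: the kappaB consensus, AP-1 (TGANTCA) and the STAT element (TTCNNNGAA).
Lta: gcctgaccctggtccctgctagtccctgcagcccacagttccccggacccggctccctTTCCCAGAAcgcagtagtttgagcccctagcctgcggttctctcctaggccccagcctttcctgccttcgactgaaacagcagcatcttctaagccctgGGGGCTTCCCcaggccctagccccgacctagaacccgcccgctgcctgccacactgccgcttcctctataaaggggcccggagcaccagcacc
Tnf: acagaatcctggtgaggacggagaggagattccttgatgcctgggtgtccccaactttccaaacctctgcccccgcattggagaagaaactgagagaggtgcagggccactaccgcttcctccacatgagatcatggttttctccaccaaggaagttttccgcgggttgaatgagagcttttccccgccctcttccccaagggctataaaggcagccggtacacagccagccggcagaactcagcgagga
Ltb: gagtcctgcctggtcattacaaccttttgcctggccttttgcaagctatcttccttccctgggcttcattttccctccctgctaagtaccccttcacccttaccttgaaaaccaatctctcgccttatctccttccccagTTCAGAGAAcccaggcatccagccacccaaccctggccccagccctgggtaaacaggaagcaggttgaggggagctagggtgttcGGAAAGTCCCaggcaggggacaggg
Tnfsf14: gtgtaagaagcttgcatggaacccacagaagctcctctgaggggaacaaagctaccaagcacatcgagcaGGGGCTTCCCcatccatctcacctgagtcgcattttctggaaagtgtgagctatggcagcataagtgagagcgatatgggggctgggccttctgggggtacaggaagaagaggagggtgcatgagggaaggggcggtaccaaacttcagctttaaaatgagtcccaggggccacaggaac
Tnfrsf1b: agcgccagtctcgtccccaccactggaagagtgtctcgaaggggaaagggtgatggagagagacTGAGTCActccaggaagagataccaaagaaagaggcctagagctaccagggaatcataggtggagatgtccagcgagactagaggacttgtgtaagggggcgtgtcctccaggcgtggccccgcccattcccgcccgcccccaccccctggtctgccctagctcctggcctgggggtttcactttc
Tnfrsf12a: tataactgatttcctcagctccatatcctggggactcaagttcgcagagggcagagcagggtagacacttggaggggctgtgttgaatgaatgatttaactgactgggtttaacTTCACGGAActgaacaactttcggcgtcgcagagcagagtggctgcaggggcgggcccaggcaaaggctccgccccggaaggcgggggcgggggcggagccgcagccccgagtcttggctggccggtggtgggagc

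In GRCr8 these windows were chr20:3623277-3623526 (forward) for Lta, chr20:3626435-3626684 (forward) for Tnf and chr20:3634055-3634304 (reverse) for Ltb. The other windows were chr9:2160087-2160336 for Tnfsf14, chr5:162387412-162387661 for Tnfrsf1b and chr10:13213649-13213898 for Tnfrsf12a, all on the reverse strand. The kappaB consensus, the site bound by NFkB, was found in 4 of the 22 member promoters (18.2%), those of Lta, Ltb, Tnfsf14 and Tnfrsf8, and in 3.52% of 27457 promoters of the same length. It lay 93 to 84 bases before the start of Lta and 25 to 16 bases before that of Ltb. AP-1 was found in 2 of 22 (9.09%, against 6.36% of all promoters), Tnfrsf1b and Tnfrsf8, and the STAT element in 3 of 22 (13.6%, against 7.52%), Lta, Ltb and Tnfrsf12a. None of these matches overlapped another motif. The window of Tnf held no match to these 3 motifs, which says only that these letters are not within it.

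The array reads each gene through probes of 60 bases. Shown here are the probe of Ltb, a ligand with a higher mean in Group M, that of Tnfsf15, a ligand with a lower mean, and the second probe of Tnfrsf21.
Ltb: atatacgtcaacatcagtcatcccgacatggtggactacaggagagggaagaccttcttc
Tnfsf15: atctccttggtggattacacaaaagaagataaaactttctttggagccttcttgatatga
Tnfrsf21, second probe: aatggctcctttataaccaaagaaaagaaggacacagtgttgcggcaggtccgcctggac

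In rn4 the probe of Tnfsf15 lay at chr5:80700180-80700239 and the second probe of Tnfrsf21 at chr9:13590088-13592406, both on the reverse strand. The latter spans 2319 bases of the genome for 60 bases of probe, whereas the first Tnfrsf21 probe, like those of Ltb and Tnfsf15, spans 60.

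**Figure D1:**
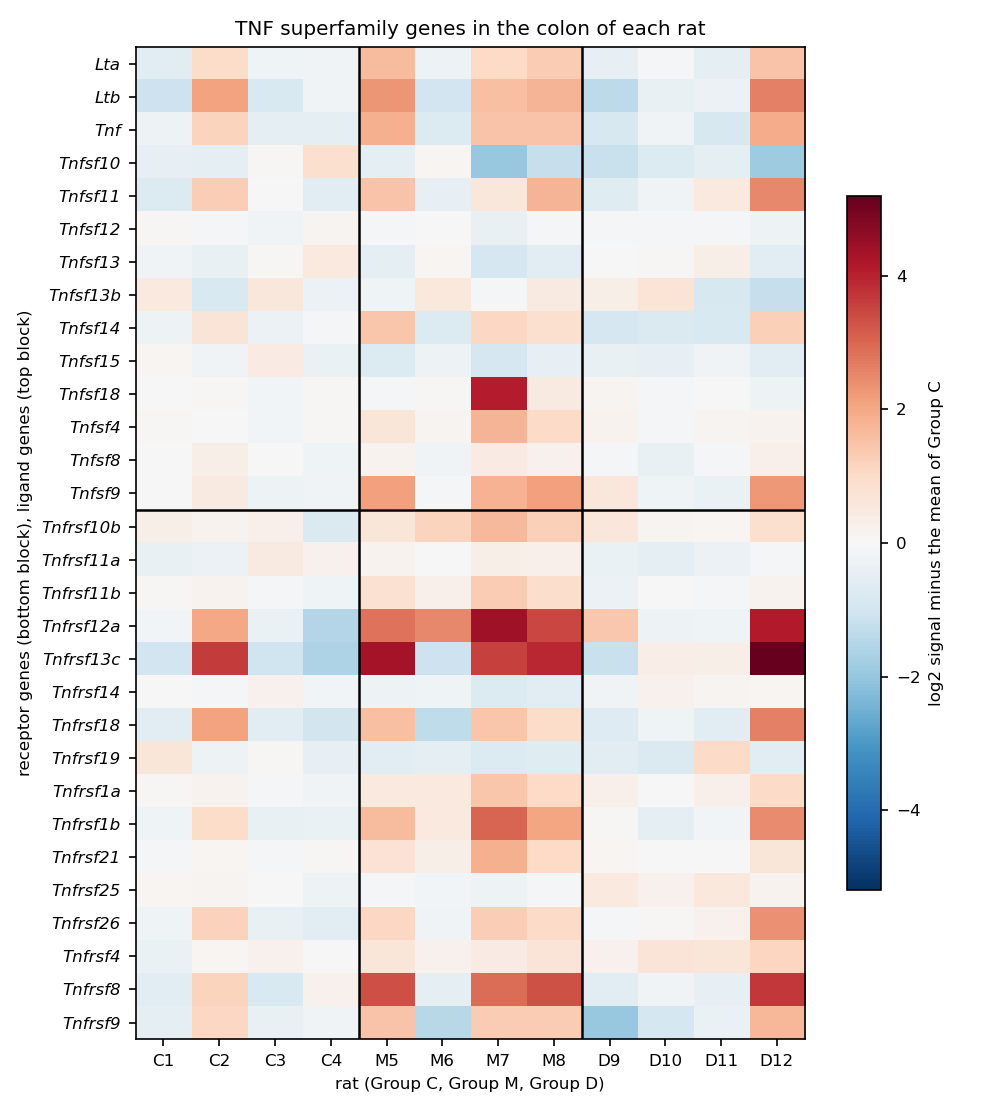
Heat map of the 30 genes (1 probe a gene) in the 12 rats. Colour gives the log2 signal minus the mean of Group C, red higher and blue lower, with ligands above and receptors below the horizontal line. Most red cells stand in C2, M5, M7, M8 and D12, while the row of Tnfrsf12a is red in all 4 rats of Group M.

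Group M vs Group C asked how NMS changed the expression of the family. Of the ligands, 10 of 14 had a higher mean in Group M and 4 a lower one, and of the receptors 13 of 16 were higher and 3 lower. The median difference was 0.75 on the log2 scale for ligands and 0.81 for receptors, beside -0.01 for all probes. For ligands the median was 0.13 with the normexp background correction, 0.17 with dim probes left out and 0.39 without M7, and for receptors 0.50 with normexp. Whether ligands and receptors differed from each other was not tested. After adjustment over all probes, limma called 0 of the 33 probes (adjusted p up to 0.05), beside 0.204% of all probes. At an unadjusted p under 0.05 there were 16 of 33, beside 22.7% of all probes, the latter made up of 10% higher and 12.6% lower. The criterion of the methods (analysis of variance and Tukey test each at a p of at most 0.05, and a 2-fold difference of the means) was passed by 3 probes, beside 2.31% of all probes. These were the receptors Tnfrsf12a, Tnfrsf1b and Tnfrsf10b, all upregulated in Group M, and no ligand passed it at this scaling. The ligand Tnfsf9 passed it too with quantile normalization, median scaling, the authors' matrix or only 2 groups in the model, and without M6. Tnfrsf12a passed it under each alternative run, whereas the call of Tnfrsf1b ended with all 12 arrays and without C1, C3, C4, M7 or M8, and that of Tnfrsf10b ended with normexp and without C4.

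Tnfrsf12a (Fn14), the receptor of the ligand Tnfsf12 (TWEAK) that is known to be induced in injured tissue, had the largest difference of the receptors measured on every array. Its levels were -1.85, 0.29, -2.07 and -3.22 in C1 to C4, 1.13, 0.79, 2.68 and 1.76 in M5 to M8, and -0.30, -1.95 and -1.95 in D9 to D11, with 2.40 in D12. All 4 rats of Group M lay above all 4 of Group C, of which C2 was the highest. The mean was 1.59 ± 0.83 (SD, n = 4) in Group M and -1.71 ± 1.46 (SD, n = 4) in Group C, a log2 difference of 3.30 (SE 0.72, adjusted p = 0.0895 by limma), or 9.85-fold. Its ligand Tnfsf12 differed by -0.14 (SE 0.11, adjusted p = 0.493 by limma) in the same comparison, and its 12 levels stayed between 1.38 and 1.93.

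Of the TNF receptors, Tnfrsf1b passed the criterion of the methods and Tnfrsf1a, at 1.84-fold, did not. Tnfrsf1a, the widely expressed receptor with a death domain, measured 0.99, 1.09, 0.86 and 0.74 in C1 to C4, 1.44, 1.44, 2.35 and 1.95 in M5 to M8, and 1.19, 0.94 and 1.18 in D9 to D11, with 1.91 in D12. Groups C and M did not overlap, and the log2 difference was 0.88 (SE 0.20, adjusted p = 0.0923 by limma). Tnfrsf1b, the receptor found mainly on immune and endothelial cells, measured -2.32, -1.11, -2.46 and -2.42 in C1 to C4, -0.45, -1.57, 0.94 and -0.03 in M5 to M8, and -2.00, -2.60 and -2.23 in D9 to D11, with 0.38 in D12. M5, M7 and M8 lay above every rat of Group C, whereas M6 lay below C2. The difference was 1.80 (SE 0.49, adjusted p = 0.106 by limma), or 3.48-fold. The second probe of Tnfrsf1b differed by 0.93 (SE 0.26, adjusted p = 0.110 by limma), the same direction at a smaller size that was under 2-fold. From these same arrays the study had itself listed Tnfrsf1b as upregulated in NMS rats and, by 2 probes, as downregulated with VSL#3. Its PCR on RNA of the same samples included this gene.

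Tnfrsf10b, a death domain receptor for the ligand Tnfsf10 (TRAIL), measured -6.23, -6.38, -6.26 and -7.30 in C1 to C4, -5.90, -5.40, -4.86 and -5.30 in M5 to M8, and -5.95, -6.40 and -6.44 in D9 to D11, with -5.72 in D12. Its groups C and M did not overlap, with C4 far below the other rats, and the difference was 1.18 (SE 0.28, adjusted p = 0.0966 by limma). This probe was well above background on 1 array of Group C, 4 of Group M and 1 of D9 to D11. Tnfsf10 itself, read by 10 spots an array, had a lower mean in Group M, with a difference of -0.90 (SE 0.43, adjusted p = 0.248 by limma). Its replicate spots spread widely, with an SD of 0.20 to 0.72 on the log2 scale within an array.

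Tnfrsf11b (osteoprotegerin), a secreted decoy for Tnfsf11, measured -1.04, -0.90, -1.14 and -1.31 in C1 to C4, -0.30, -0.83, 0.22 and -0.19 in M5 to M8, and -1.42, -1.13 and -1.16 in D9 to D11, with -0.90 in D12. All rats of Group M lay above Group C, M6 by a small margin, and the difference was 0.82 (SE 0.20, adjusted p = 0.0979 by limma). Tnfrsf21 (DR6), a receptor with a death domain, measured -0.88, -0.70, -0.86 and -0.74 in C1 to C4, -0.06, -0.49, 1.03 and 0.22 in M5 to M8, and -0.69, -0.80 and -0.83 in D9 to D11, with -0.17 in D12. Groups C and M did not overlap on either of its probes, which differed by 0.97 (SE 0.26, adjusted p = 0.106 by limma) and 0.95 (SE 0.28, adjusted p = 0.113 by limma). On the second probe M6, at -4.927, lay barely above C4, at -4.934. The 10 replicate spots of the first probe had an SD of 0.03 to 0.10 on the log2 scale within an array. Over the family, groups C and M did not overlap for 6 of 30 genes that were higher in Group M, beside 4.18% of all probes. These were Tnfrsf10b, Tnfrsf11b, Tnfrsf12a, Tnfrsf1a, Tnfrsf21 and Tnfsf4, the last above background on none of the 11 arrays.

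**Figure D2:**
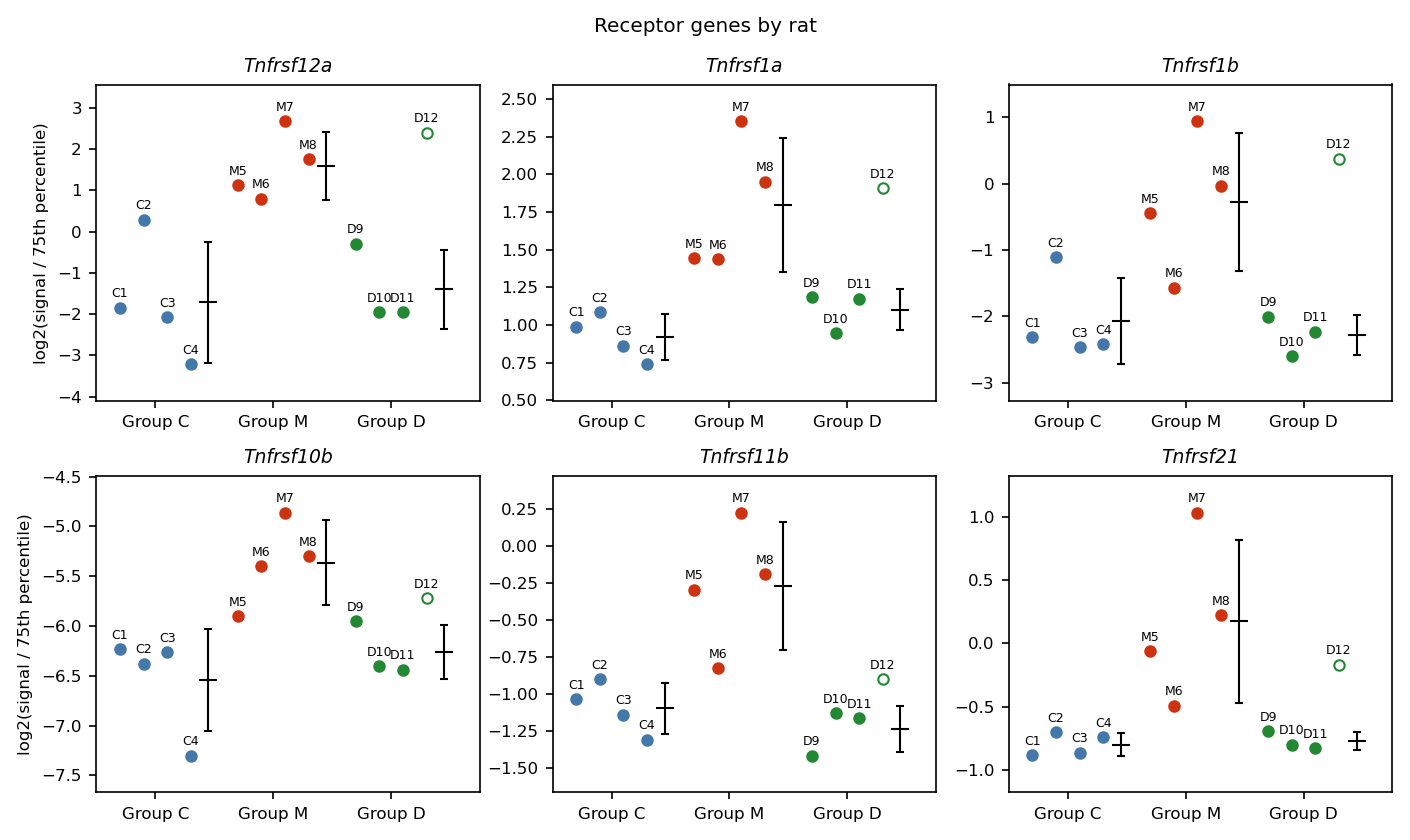
Levels of 6 receptor genes by rat, as log2 signal over the array's 75th percentile. Points are rats (D12 open), and the bars give the mean ± SD of Group C (4 rats), Group M (4 rats) and D9 to D11. In all panels other than Tnfrsf1b, the 4 rats of Group M lie above the 4 of Group C.

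The founding ligands were high in 3 of the 4 rats of Group M and in C2. Tnf measured -3.04, -1.62, -3.24 and -3.27 in C1 to C4, -0.95, -3.52, -1.29 and -1.30 in M5 to M8, and -3.64, -2.99 and -3.62 in D9 to D11, with -0.86 in D12. M5, M7 and M8 lay above all of Group C, while M6 was below them all and C2 was nearer to those 3 rats than to C1, C3 and C4. The difference was 1.02 (SE 0.56, adjusted p = 0.308 by limma). Lta (lymphotoxin alpha), which acts as a secreted ligand of the TNF receptors, measured -4.98, -3.41, -4.59 and -4.54 in C1 to C4, -2.72, -4.63, -3.33 and -3.07 in M5 to M8, and -4.79, -4.47 and -4.84 in D9 to D11, with -2.88 in D12. Ltb (lymphotoxin beta), which joins Lta to form a membrane ligand of the lymphotoxin receptor, measured -1.34, 1.82, -1.04 and -0.44 in C1 to C4, 2.05, -1.24, 1.31 and 1.50 in M5 to M8, and -1.60, -0.64 and -0.57 in D9 to D11, with 2.35 in D12. For Lta, M5, M7 and M8 lay above all of Group C and M6 within it, and for Ltb C2 lay above M7 and M8. The differences were 0.94 (SE 0.42, adjusted p = 0.219 by limma) for Lta and 1.16 (SE 0.81, adjusted p = 0.433 by limma) for Ltb.

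Of the costimulatory ligands, Tnfsf9 (4-1BB ligand) had the largest difference among ligands measured on every array. It measured -4.15, -3.67, -4.40 and -4.34 in C1 to C4, -2.01, -4.26, -2.33 and -2.01 in M5 to M8, and -3.55, -4.36 and -4.48 in D9 to D11, with -1.89 in D12. M5, M7 and M8 were above all of Group C and M6 was within it, and the difference was 1.49 (SE 0.47, adjusted p = 0.123 by limma), or 2.81-fold. Its receptor Tnfrsf9 (4-1BB) differed by 0.67 (SE 0.67, adjusted p = 0.595 by limma), with M6 the lowest of its 8 rats. Tnfsf14 (LIGHT) measured -6.42, -5.49, -6.50 and -6.28 in C1 to C4, -4.75, -6.87, -5.10 and -5.36 in M5 to M8, and -7.04, -6.93 and -6.98 in D9 to D11, with -4.95 in D12. M6 lay below every rat of Group C and the other 3 above, and the difference was 0.66 (SE 0.41, adjusted p = 0.370 by limma). Its receptor Tnfrsf14 (HVEM) was lower in all 4 rats of Group M than in any of Group C, at a difference of -0.45 (SE 0.14, adjusted p = 0.128 by limma). Tnfrsf14 and Tnfrsf19, the latter above background on none of the arrays, were the 2 of 30 genes that were lower without overlap, a share near the 5.04% of all probes.

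Tnfsf15 (TL1A), a ligand of Tnfrsf25 (DR3), measured -3.07, -3.34, -2.75 and -3.50 in C1 to C4, -3.87, -3.44, -4.04 and -3.59 in M5 to M8, and -3.55, -3.59 and -3.34 in D9 to D11, with -3.75 in D12. M5, M7 and M8 lay below all of Group C, and M6 within it. The difference was -0.57 (SE 0.18, adjusted p = 0.128 by limma), and Tnfrsf25 differed by -0.15 (SE 0.12, adjusted p = 0.493 by limma). Tnfrsf4 (OX40), a costimulatory receptor of T cells, measured -2.99, -2.54, -2.39 and -2.62 in C1 to C4, -2.01, -2.41, -2.21 and -1.95 in M5 to M8, and -2.42, -1.96 and -2.00 in D9 to D11, with -1.51 in D12. M5, M7 and M8 lay above Group C and M6 within it, and the difference was 0.49 (SE 0.16, adjusted p = 0.134 by limma). Its ligand Tnfsf4 was above background on none of them.

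**Figure D3:**
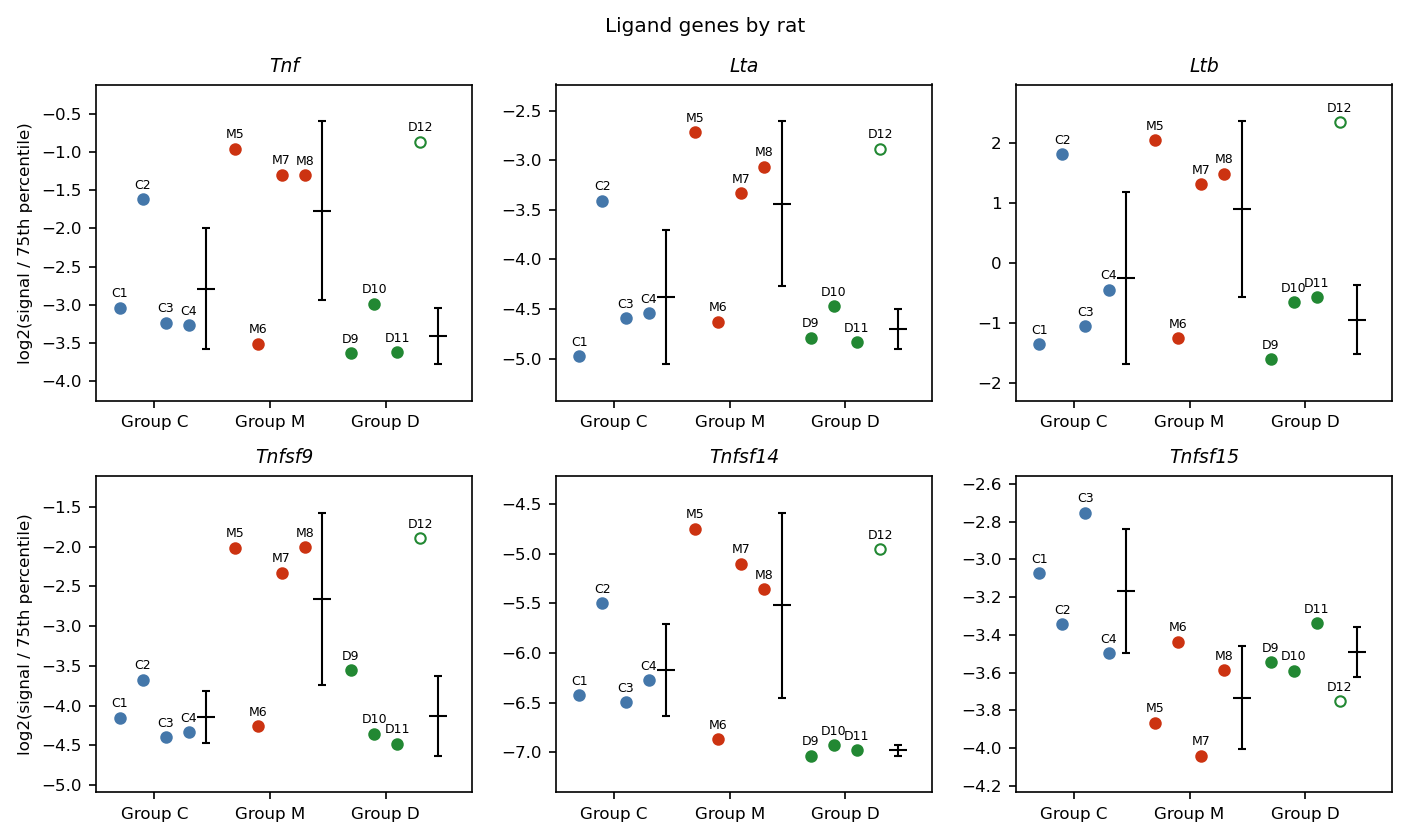
Levels of 6 ligand genes by rat, as log2 signal over the array's 75th percentile, with D12 open and bars for the mean ± SD of each group (D9 to D11 for Group D). For Tnf, Lta, Tnfsf9 and Tnfsf14, M5, M7 and M8 lie above Group C and M6 does not.

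Tnfrsf13c (BAFF receptor), a survival receptor of B cells, measured -7.37, -2.76, -7.43 and -8.01 in C1 to C4, -2.06, -7.45, -2.85 and -2.47 in M5 to M8, and -7.56, -6.03 and -6.09 in D9 to D11, with -1.23 in D12. The levels fell into a high set of C2, M5, M7, M8 and D12 and a low set of the other rats, and the difference was 2.68 (SE 1.38, adjusted p = 0.278 by limma). Its ligand Tnfsf13b (BAFF) differed by 0.18 (SE 0.40, adjusted p = 0.846 by limma), and Tnfsf13 (APRIL) by -0.44 (SE 0.23, adjusted p = 0.288 by limma). Tnfrsf8 (CD30) was well above background on 0 arrays of Group C and 3 of Group M, where it was at least 1.54-fold higher (adjusted p = 0.143 by limma), and its second probe was below background on all 12 arrays. Its ligand Tnfsf8 differed by 0.16 (SE 0.16, adjusted p = 0.578 by limma). The costimulatory receptor Tnfrsf18 (GITR) differed by 0.66 (SE 0.75, adjusted p = 0.645 by limma) and Tnfrsf26 by 0.79 (SE 0.41, adjusted p = 0.283 by limma), with C2, M5, M7 and M8 again the 4 highest of the 8 rats in both. Tnfsf18, the ligand of Tnfrsf18, was well above background in M7 alone of the 12 rats. Tnfsf11 (RANKL) was well above background on 1 array of Group M and in D12, and its receptor Tnfrsf11a (RANK) measured -2.97, -2.90, -2.14 and -2.36 in C1 to C4, -2.42, -2.58, -2.29 and -2.33 in M5 to M8, and -2.92, -3.08 and -2.90 in D9 to D11, with -2.67 in D12. Groups C and M overlapped, at a difference of 0.19 (SE 0.18, adjusted p = 0.575 by limma).

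The call by limma turned on 1 rat. Without M6, limma called 19 of the 33 probes in Group M vs Group C, 17 higher and 2 lower, beside 16.2% of all probes, and 15 passed the criterion of the methods, beside 5.84%. Without M6, the differences were 1.61 for Tnf (adjusted p = 0.0259 by limma), 2.03 for Tnfsf9 (adjusted p = 0.00604 by limma), 2.23 for Tnfrsf1b (adjusted p = 0.013 by limma) and 3.57 for Tnfrsf12a (adjusted p = 0.0204 by limma). Each rat was left out in turn, and M6 is singled out here after its values were seen. The calls and p-values without it are therefore descriptive only. Without C2, limma called 1 probe, Tnfrsf12a, beside 0.244% of all probes, and 7 passed the criterion of the methods, beside 3.3%. With all rats kept and each array given a weight from its residuals, limma called 23 of 33 in Group M vs Group C, beside 28.3% of all probes. Without any other rat of these groups limma called 0. M6 was the lowest of Group M in 20 of 30 genes (25.3% of all probes) and C2 the highest of Group C in 19 (21.2% of all probes). In 8 of 30 genes M5, M7 and M8 lay above every rat of Group C and M6 did not, beside 8.11% of all probes.

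Group D vs Group M asked how VSL#3 changed the family in NMS rats. In D9 to D11, 10 of 14 ligands and 12 of 16 receptors had a lower mean than in Group M. The median difference was -0.87 for ligands and -0.92 for receptors, beside 0.01 for all probes. These medians were -0.06 and -0.53 with normexp, and for ligands -0.23 with dim probes left out and -0.38 without M7. Limma called 0 of 33 probes, beside 0.171% of all probes, and 20 of 33 had an unadjusted p under 0.05, beside 21.6% (11.3% higher, 10.3% lower). The criterion of the methods was passed by 4 probes of 3 genes, Tnfsf14, Tnfrsf12a and both probes of Tnfrsf1b, all downregulated in Group D, beside 2.66% of all probes. The call of Tnfsf14, the ligand among them, ended with quantile normalization, median scaling, the authors' matrix, normexp or all 12 arrays, and without any 1 rat other than C2 or M6. That of Tnfrsf12a ended with all 12 arrays and without M7, D10 or D11, and both probes of Tnfrsf1b lost it with all 12 arrays and without D10, and 1 of them did with normexp and without M7, M8 or D11. This comparison and Group M vs Group C share the rats of Group M.

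Tnfrsf12a differed by -2.99 (SE 0.77, adjusted p = 0.0992 by limma) in Group D vs Group M, with D9 to D11 below all of Group M and within the range of Group C. Tnfrsf1b differed by -2.00 (SE 0.52, adjusted p = 0.0994 by limma) and its second probe by -1.10 (SE 0.28, adjusted p = 0.0939 by limma), again without overlap. Tnfsf14 was above background in none of D9 to D11 and was at least 2.13-fold lower than in Group M (adjusted p = 0.119 by limma). Its 3 levels in D9 to D11 lay below all 8 rats of Groups C and M. Tnfrsf9 was likewise not well above background there and was at least 2.33-fold lower (adjusted p = 0.203 by limma), and Tnfrsf8 at least 1.46-fold lower (adjusted p = 0.132 by limma). For both Tnfrsf9 and Tnfrsf8, D9 to D11 overlapped with M6. In D12 they measured -4.24 and -4.66, above all of Group M.

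Without overlap between D9 to D11 and Group M, 8 of 30 genes were lower, beside 7.38% of all probes. They were Tnfsf14 and the receptors Tnfrsf10b, Tnfrsf11a, Tnfrsf11b, Tnfrsf12a, Tnfrsf1a, Tnfrsf1b and Tnfrsf21. The differences were -0.69 (SE 0.21, adjusted p = 0.124 by limma) for Tnfrsf1a, -0.96 (SE 0.21, adjusted p = 0.083 by limma) for Tnfrsf11b, -0.95 (SE 0.28, adjusted p = 0.117 by limma) for Tnfrsf21, -0.90 (SE 0.30, adjusted p = 0.140 by limma) for Tnfrsf10b and -0.56 (SE 0.20, adjusted p = 0.149 by limma) for Tnfrsf11a. For Tnf, Lta, Ltb and Tnfsf9, by contrast, D9 to D11 overlapped with M6. Their differences were -1.65 (SE 0.61, adjusted p = 0.162 by limma), -1.26 (SE 0.46, adjusted p = 0.158 by limma), -1.84 (SE 0.88, adjusted p = 0.257 by limma) and -1.48 (SE 0.51, adjusted p = 0.146 by limma) in that order. The receptors Tnfrsf14 and Tnfrsf25 were higher without overlap, 2 of 30 genes, near the 8.46% of all probes, by 0.50 (SE 0.16, adjusted p = 0.126 by limma) and 0.57 (SE 0.13, adjusted p = 0.083 by limma). Tnfsf15 differed by 0.24 (SE 0.20, adjusted p = 0.518 by limma), and Tnfsf13 by 0.57 (SE 0.25, adjusted p = 0.225 by limma).

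**Figure D4:**
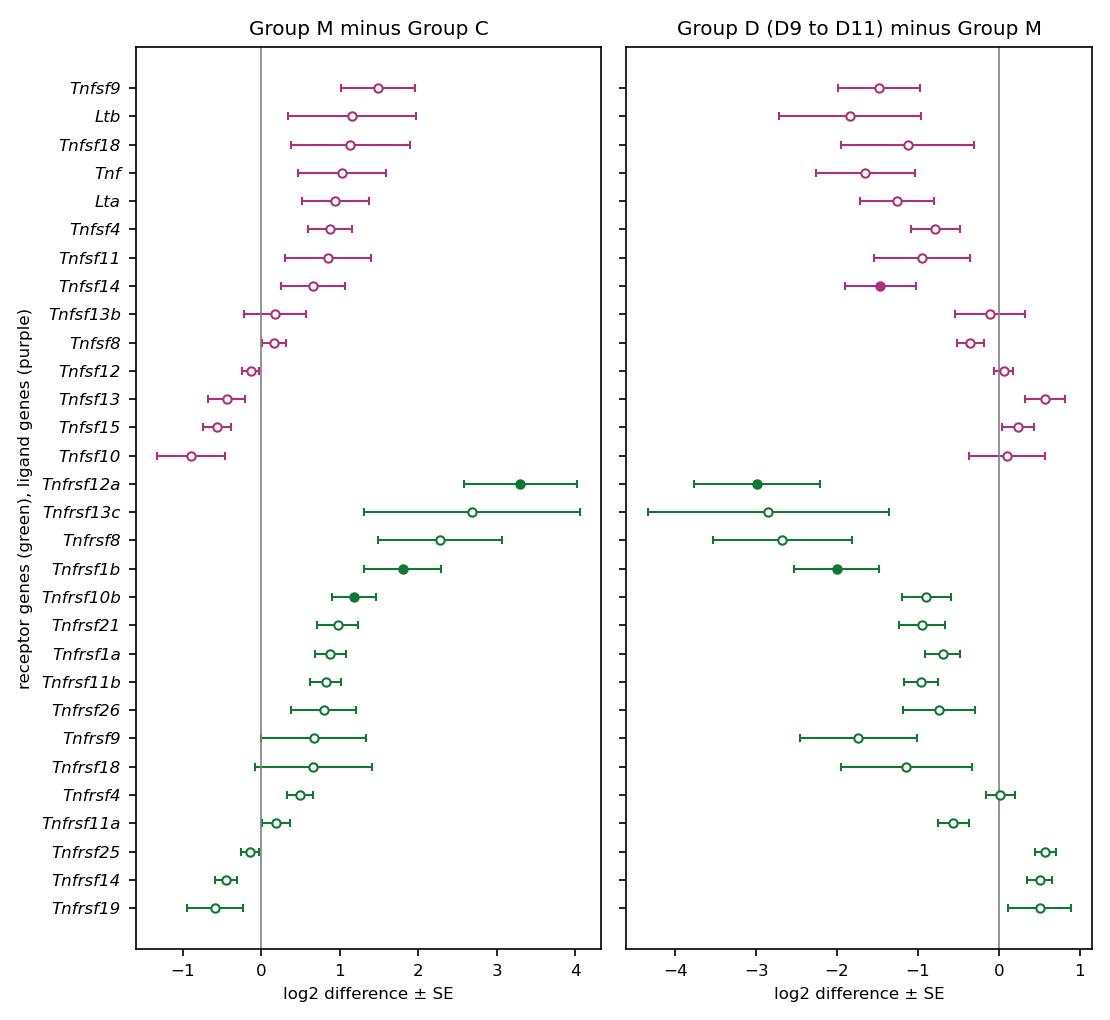
Log2 differences ± SE (limma, 11 arrays) of the 30 genes, ligands in purple and receptors in green, in order of the difference between Group M and Group C. Filled points passed the criterion of the methods, 3 receptors on the left and Tnfsf14, Tnfrsf12a and Tnfrsf1b on the right.

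The count again turned on M6. Without that rat, limma called 19 of 33 probes in Group D vs Group M, 17 lower and 2 higher, beside 14.8% of all probes, and 14 passed the criterion of the methods, beside 6.67%. With array weights limma called 24 of 33, beside 22.7%. Without M6, Tnf differed by -2.23 (adjusted p = 0.0136 by limma), Ltb by -2.56 (adjusted p = 0.0447 by limma) and Tnfrsf1b by -2.43 (adjusted p = 0.0125 by limma). The calls and p-values without M6 are descriptive here too, since that rat is singled out after its values were seen. With D12 among Group D, the criterion of the methods was passed by 0 of 33 probes, beside 0.948% of all probes. Limma then called 0, beside 0.0198%, with 8 at an unadjusted p under 0.05, beside 12.2%. With it the medians were -0.59 for ligands and -0.63 for receptors. The criterion was passed by 1 probe without M7, 2 without M8, 1 without D10 and 2 without D11.

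D12, the fourth rat of Group D, had the levels of the high rats rather than those of D9 to D11. It lay above D9 to D11 in 8 of 14 ligands and 13 of 16 receptors, 21 of 30 genes in all, beside 28.4% of all probes. Against the mean of Group C, 6 of 14 ligands and 8 of 16 receptors were at least 2-fold higher in D12, beside 6.6% of all probes. That count was 0 of 14 ligands in each of D9, D10 and D11. Of 16 receptors it was 1 in D9 and 0 in D10 and D11, beside 1.49%, 1.34% and 1.52% of all probes in that order. In Group M it was 6 of 14 ligands and 7 of 16 receptors in M5 (6.42% of all probes), 7 and 11 in M7 (7.37%), 5 and 9 in M8 (5.5%), and 0 and 2 in M6 (2.46%). C2, set against the other 3 rats of Group C, had 4 ligands and 7 receptors at least 2-fold higher, beside 3.58% of all probes. With all 4 rats of Group D, Tnfrsf12a differed from Group M by -2.04 (SE 0.98, adjusted p = 0.437 by limma).

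Group D vs Group C asked whether the family in treated NMS rats differed from that in controls. In D9 to D11 vs Group C the median difference was -0.15 for ligands and -0.03 for receptors, beside -0.01 for all probes, and 8 of 16 receptors were higher and 8 lower. With D12 included the median was -0.06 for ligands and 0.38 for receptors, and 12 of 16 receptors were higher and 4 lower. Limma called 0 of 33 probes, beside 0.00659% of all probes, and none passed the criterion of the methods, beside 0.369%. At an unadjusted p under 0.05 there were 2 of 33, beside 5.97% of all probes, a share near that over the array. They were Tnfrsf25 and Tnfrsf4, both higher in Group D. Tnfrsf25 measured -1.89, -1.86, -1.97 and -2.25 in C1 to C4, -2.05, -2.15, -2.27 and -2.08 in M5 to M8, and -1.49, -1.77 and -1.43 in D9 to D11, with -1.80 in D12. D9 to D11 lay above all of Group C and Group M, which made it the 1 of 30 genes higher than Group C without overlap, beside 3.54% of all probes, and the difference from Group C was 0.43 (SE 0.13, adjusted p = 0.656 by limma). Tnfrsf4 differed by 0.51 (SE 0.18, adjusted p = 0.749 by limma), with D9 within Group C.

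For the genes that led the other comparisons, limma called no difference between Group D and Group C. Tnfrsf12a differed by 0.31 (SE 0.77, adjusted p = 0.9998 by limma), Tnfrsf1b by -0.20 (SE 0.52, adjusted p = 0.9998 by limma), Tnf by -0.62 (SE 0.61, adjusted p = 0.982 by limma) and Ltb by -0.68 (SE 0.88, adjusted p = 0.997 by limma). For Tnf, Lta, Ltb and both probes of Tnfrsf1b this direction was reversed when D12 was included. Tnfrsf11a differed by -0.37 (SE 0.20, adjusted p = 0.876 by limma) and Tnfsf15 by -0.33 (SE 0.20, adjusted p = 0.920 by limma). Tnfsf14 was at least 1.35-fold lower in D9 to D11 (adjusted p = 0.887 by limma) and lay without overlap below Group C, as did Tnfsf10, 2 of 30 genes beside 4.02% of all probes. These tests do not show that the groups were alike.

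Markers of immune cells moved with many of the members. The mean log2 level of 8 measured B cell markers (3 of them well above background on all 12 arrays) was -5.82, -1.19, -5.30 and -4.95 in C1 to C4, -0.58, -5.74, -1.41 and -1.13 in M5 to M8, and -6.40, -4.26 and -4.78 in D9 to D11, with 0.04 in D12. The mean of 10 T cell markers was -3.84, -1.33, -3.97 and -3.46 in C1 to C4, -1.45, -4.22, -1.99 and -1.94 in M5 to M8, and -3.97, -3.30 and -3.44 in D9 to D11, with -0.47 in D12. In both lists C2, M5, M7, M8 and D12 were high and the other rats low, the same division of rats as in the ligands Tnf, Lta, Ltb, Tnfsf8, Tnfsf11 and Tnfsf14 and the receptors Tnfrsf1b (both probes), Tnfrsf8, Tnfrsf9, Tnfrsf13c, Tnfrsf18 and Tnfrsf26. No marker of either list was called by limma or passed the criterion of the methods in Group M vs Group C or Group D vs Group M. Macrophage markers ranged from 0.33 to 0.75 in Group C, 0.41 to 0.99 in Group M and 0.14 to 0.30 in D9 to D11, with 0.82 in D12.

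Mast cell markers, 11 genes, followed another order. Their mean was -4.04, -3.32, -3.86 and -3.85 in C1 to C4, -2.00, -2.63, -2.22 and -2.51 in M5 to M8, and -2.96, -2.48 and -3.11 in D9 to D11, with -3.05 in D12. All of Group M, M6 included, lay above Group C, as for Tnfrsf12a, Tnfrsf1a, Tnfrsf10b, Tnfrsf11b and Tnfrsf21, but D9 to D11 lay above Group C too. Of these markers 7 of 11 passed the criterion of the methods in Group M vs Group C, beside 2.31% of all probes, and 1 was called by limma, beside 0.204%. The mean of the 7 enteric glia markers ranged from -4.37 to -4.11 in Group C, -4.07 to -3.63 in Group M and -4.54 to -4.43 in D9 to D11, so that Group M lay above both without overlap, and it was -3.74 in D12. Their part in the receptors' values was not tested. Of them Gfap passed the criterion of the methods as higher in Group M vs Group C and as lower in Group D vs Group M. The mean of the 6 measured plasma cell markers ranged from 0.36 to 0.73 in Group C and from 0.99 to 1.78 in Group M, without overlap. It was 0.43 to 0.62 in D9 to D11, with 1.31 in D12. Taken singly, Derl3 and Sdc1 did not overlap between Groups C and M, whereas Igj, Prdm1, Xbp1 and Pou2af1 did. Pou2af1 alone of them passed the criterion of the methods, as higher in Group M vs Group C and lower in Group D vs Group M. Neutrophil markers ranged from -6.13 to -5.13 in Group C and -5.77 to -3.42 in Group M, with Elane not well above background on any array. Colonic epithelial markers were lower in C2, M5, M7, M8 and D12, at 1.40, 1.28, 0.66, 1.32 and 0.87, than in the other 7 rats, where they were at least 2.15. The part of these cells in the differences of the family was not tested.

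**Figure D5:**
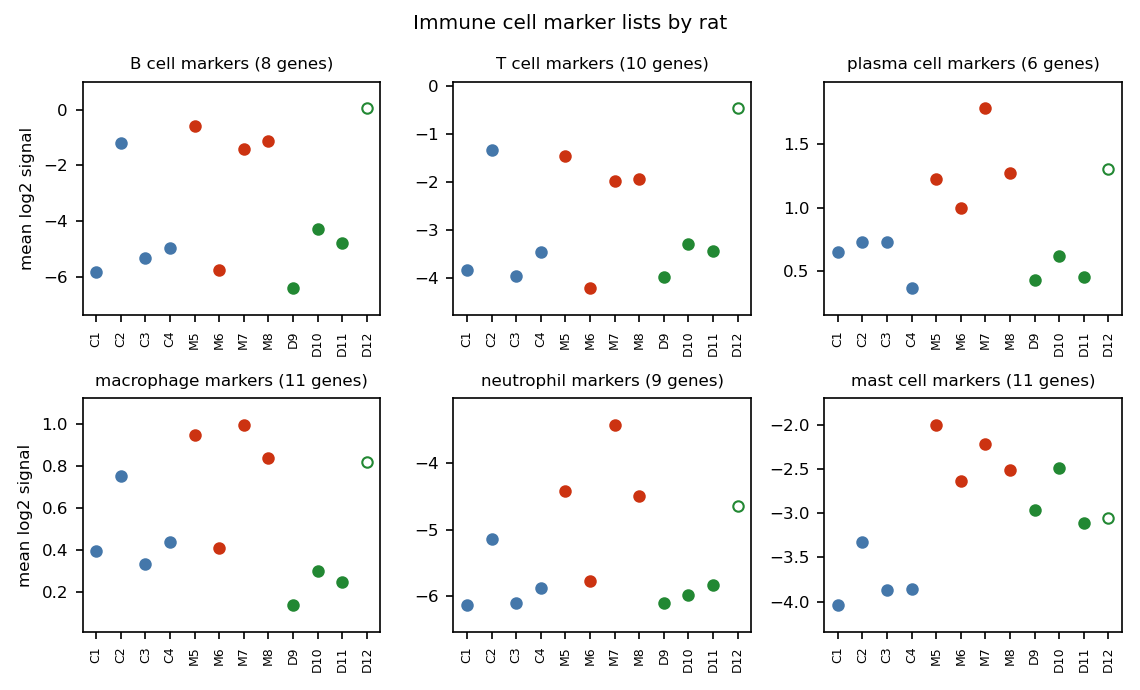
Mean log2 level of the marker lists of 6 immune cell types in each of the 12 rats (D12 open). B and T cell markers are high in C2, M5, M7, M8 and D12, whereas mast cell markers are above Group C in all 4 rats of Group M.

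Of the rest of the pathway, 86 of 96 listed genes were measured, and limma called 0 of 86 in each comparison, beside 0.204%, 0.171% and 0.00659% of all probes. Between Group M and Group C, 22 were higher and 5 lower at an unadjusted p under 0.05, beside 10% and 12.6% of all probes, and 9 passed the criterion of the methods, all higher and all of the list of 35 genes known to respond to TNF, beside 1.37% of all probes. The median difference of this list was 0.65. The lists were chosen with earlier results of these data known. The study had itself listed Ccl2, Cxcl1, Il6 and Ptgs2 as upregulated in NMS rats, so the count is no test of a response to TNF. The 9 were Tnfaip6, Ccl2, Ptgs2, Bcl3, Tnfaip8, Icam1, Cxcl1, Il6 and Tnfaip2, of which Il6 was well above background on 1 of the 11 arrays, in Group M. Between Group D and Group M, 5 were higher and 24 lower at an unadjusted p under 0.05, beside 11.3% and 10.3%, and 8 passed the criterion, all lower, beside 1.57% of all probes. They were Ccl2, Tnfaip6, Icam1, Selp, Tnfaip2, Csf2 and Cxcl2 of the TNF response list, whose median was -0.83, and Traip. Csf2 was well above background on 2 arrays, both in Group M, and was at least 1.38-fold lower in Group D (adjusted p = 0.112 by limma). Between Group D and Group C none passed the criterion, and 0 were higher and 3 lower at an unadjusted p under 0.05, beside 2.98% and 2.98% of all probes.

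Tnfaip6, which encodes a hyaluronan-binding protein secreted in inflammation, measured -6.05, -6.05, -6.37 and -7.01 in C1 to C4, -3.51, -4.62, -1.92 and -2.65 in M5 to M8, and -4.68, -6.89 and -6.39 in D9 to D11, with -2.45 in D12. All rats of Group M lay above Group C, and the difference was 3.19 (SE 0.61, adjusted p = 0.0798 by limma). It was well above background on 7 of the 11 arrays. Ccl2, a chemokine for monocytes, measured -0.91, 1.40, -0.55 and -1.08 in C1 to C4, 2.78, 1.11, 4.71 and 2.93 in M5 to M8, and -0.87, -0.90 and -1.57 in D9 to D11, with 2.73 in D12. M6 lay below C2 and D9 to D11 below all of Group M. Ccl2 differed by 3.17 (SE 0.73, adjusted p = 0.0955 by limma) in Group M vs Group C and -4.00 (SE 0.79, adjusted p = 0.0729 by limma) in Group D vs Group M. Ptgs2 (cyclooxygenase 2) differed by 1.61 (SE 0.41, adjusted p = 0.101 by limma) in Group M vs Group C without overlap. Icam1, an adhesion molecule of endothelium, differed by -1.55 (SE 0.39, adjusted p = 0.0943 by limma) in Group D vs Group M without overlap, and Tnfaip6 by -2.81 (SE 0.65, adjusted p = 0.0848 by limma) with D9 below M6 by a small margin.

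Of 29 measured adapters and effectors, 5 were higher and 3 lower at an unadjusted p under 0.05 in Group M vs Group C, with a median of -0.08, and none passed the criterion. Their 8 of 29 is near the 22.7% of all probes in either direction. Traip, which binds TRAF adapters, passed the criterion in Group D vs Group M. It was well above background on 3 arrays of Group M, 1 of Group C and 0 of D9 to D11, and was at least 1.63-fold lower in the latter than in Group M (adjusted p = 0.0993 by limma). Of 9 genes that process the ligands and receptors, 1 was higher and 2 lower at an unadjusted p under 0.05 in Group M vs Group C, beside 10% and 12.6% of all probes, and none passed the criterion. Of 13 superfamily members with other symbols none passed it, and 2, chosen here after their values were seen, were higher at an unadjusted p under 0.05, beside 10%. These were Ngfr, the neurotrophin receptor of nerve and glia, at 0.73 (SE 0.26, adjusted p = 0.142 by limma), and the orphan receptor Relt, at 1.46 (SE 0.61, adjusted p = 0.190 by limma). Their differences in Group D vs Group M were -0.93 (SE 0.28, adjusted p = 0.117 by limma) and -1.99 (SE 0.66, adjusted p = 0.137 by limma).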

How the data were processed

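Colonic RNA of 12 rats was labelled with Cy3, and each was hybridized to 1 Agilent 60-mer array. The deposited intensity values (processed signal, linear, background subtracted by the authors with Feature Extraction 10.5.1.1, positions on rn4) were not normalized between arrays. The authors' deposited matrix holds quantile normalized log2 values and served as an alternative. The files' marks for background and outlier spots were used as deposited. Here control spots (4259 of 62976) and outlier spots were left out, spots of a probe were averaged as log2 signal, and the log2 of the array's 75th percentile was subtracted. The 3 groups were fitted in one model with limma 3.58.1 under R 4.3.3 (lmFit, eBayes, 11 arrays), with Benjamini-Hochberg adjustment over 30367 probes, of which 19 lacked a value on some array. The methods' criterion was computed on the same values. The fit was tested on simulated data. A fold is given as "at least" where no array of the dimmer group was well above background: the brighter mean against, per array, the higher of the probe's signal and the lowest signal well above background. Alternatives were 12 arrays, normexp (offset 50), quantile and median scaling, the authors' matrix, outliers kept, a filter on dim probes (21180 left), 2 groups in the model, replicate block, array weights and each rat left out.

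Named with full statistics were Tnf, Lta, Ltb, Tnfrsf1a, Tnfrsf1b, members that passed a criterion, and in each comparison the 3 ligands and 3 receptors with the largest difference among those above background on every array, and of each pathway list up to 3 genes past the criterion. The other members are given by their difference. The members and lists were chosen with earlier results of these data known. Of the family, 1 result is not reported here. Figures were drawn with Python 3.11.15 and matplotlib 3.10.9.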

Additional observations from a re-analysis of the deposited data

Results flagged for a closer look

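In each group of 4 rats, the gap of the highest or lowest rat to its nearest neighbour was set against the range of the group by Dixon's test. Of 51 such sets of values of the named members, 6 passed, and chance alone gives about 1 in 20. The sets share the same rats, and many of the genes moved together, so they are not independent. The count therefore does not measure an excess over chance. Tnf was high in C2, at -1.615 where C1, C3 and C4 lay between -3.27 and -3.04, and low in M6, at -3.515 where M5, M7 and M8 lay between -1.30 and -0.95. Tnfsf9 was low in M6 as well, at -4.262 where the other 3 lay between -2.33 and -2.01. Tnfrsf1b was high in C2, at -1.109 where C1, C3 and C4 lay between -2.46 and -2.32. Tnfsf14 was high in D12, at -4.953 where D9 to D11 lay between -7.04 and -6.93. Tnfrsf10b was low in C4, at -7.304 where C1 to C3 lay between -6.38 and -6.23, on a probe that was well above background on 1 array of Group C.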

How the results depend on the processing

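Of 1068 values of named genes under the alternatives, 988 kept their direction and their side of an adjusted p of 0.05, 59 newly passed it, and 21 turned direction. Of 321 counts and medians, 259 stayed near the value given and 62 moved. The causes of these moves were not tested. Counts of members called by limma were 0 in the 3 comparisons. With array weights they were 23 for Group M vs Group C and 24 for Group D vs Group M. They were 1 in the former with the normexp correction, and 16, 20 and 2 at an unadjusted p under 0.05. With rats left out in turn they ranged from 0 to 19 in Group M vs Group C and 0 to 19 in Group D vs Group M, 19 without M6 in both and 1 without C2 in the former. Probes past the criterion of the methods ranged from 2 to 15 and 1 to 14 in the same way. In the latter comparison they were 0 with all 12 arrays and 2 under normexp. Of the other pathway genes (86 measured), limma called 33 and 30 with array weights, beside 28.3% and 22.7% of all probes. With the filter on dim probes it called 1 and 3, beside 0.562% and 1.51%. Under normexp it called 3 for Group D vs Group M, beside 1.09%. With rats left out these counts ranged from 0 to 23 and 0 to 25, beside at most 16.2% and 14.8% of all probes. The median of ligands in Group M vs Group C, 0.75, was 0.13 with normexp and 0.17 with the filter on dim probes, and 0.39 to 1.12 with rats left out. The median of ligands in Group D vs Group M, -0.87, was -0.59 with all 12 arrays, -0.0640 with normexp, -0.23 with the filter on dim probes and -0.74 with array weights, and -1.21 to -0.38 with rats left out. The median of ligands in Group D vs Group C, -0.15, was -0.0586 with all 12 arrays, -0.0807 with normexp, -0.11 with quantile normalization, -0.10 with median scaling, -0.11 with the authors' matrix, -0.26 with the filter on dim probes and -0.11 with array weights, and -0.28 to -0.0493 with rats left out. The median of receptors in Group D vs Group M, -0.92, was -0.63 with all 12 arrays, -0.53 with normexp, -0.88 with quantile normalization, -0.84 with median scaling, -0.74 with the filter on dim probes and -0.87 with the mean of all probes of a gene, and -1.11 to -0.70 with rats left out. The median of receptors in Group D vs Group C, -0.03, was 0.38 with all 12 arrays, and -0.20 to 0.17 with rats left out. The direction turned in Group D vs Group C with all 12 arrays for Lta (0.14), Ltb (0.14), Tnf (0.0138), the second probe of Tnfrsf1b (0.16), Tnfrsf1b (0.46). With rats left out, the difference of Group D vs Group C ranged for Lta from -0.52 to 0.00512 (turned without C2), for Ltb from -1.05 to 0.00635 (turned without C2), for Tnfrsf12a from -0.24 to 0.98 (turned without C4 or D9), for the second probe of Tnfrsf1b from -0.29 to 0.00190 (turned without C2), for Tnfrsf1b from -0.34 to 0.12 (turned without C2), for Tnfrsf21 from -0.0151 to 0.0575 (turned without C1 or D9), for Tnfsf9 from -0.28 to 0.19 (turned without C3, C4 or D9). With rats left out, the difference of Group D vs Group M ranged for Tnfrsf4 from -0.0728 to 0.16 (turned without M6, M7, D10 or D11), and it was -0.12 with array weights. 

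With the replicate number as a block, which is the column of the slide, limma called 0 members in each comparison, and the counts over all probes were 1, 1 and 0. The numbers do not pair the rats: same-numbered rats of different groups correlated from -0.559 to 0.384, and 3 of 12 rats matched their own number best. Slide could not be fitted as a term, since Group D had a slide of its own. Within the slide of Groups C and M, the fit of those groups alone called 0 members, beside 0.0757% of all probes. In that fit 4 of 33 probes passed the criterion of the methods, beside 2.7% of all probes. Row on the slide cannot be told apart from group there.

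With 3 or 4 rats a group, the number of arrays limits the precision, and 11 of the 30 genes were not well above background on every array. Tnfsf14 had no value with dim probes left out. The analysis of variance was not run with a block or weights.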
